A study of Mus musculus with 23 samples.

Results

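The 10 genes described here are C1qa, C1qb, C1qc, Cd5l, Fcna, Axl, Hmox1, Vcam1, Sepp1 and Apoe, which are used as marks of macrophages in mouse bone marrow. They were taken by symbol from a table of 23536 gene rows, and each symbol had 1 row. The study counted mRNA molecules of single mouse bone marrow cells by CEL-seq, in which each captured transcript is tagged before amplification. In 1 group, marrow was flushed gently, small clumps of attached cells were pulled apart with needles, and each cell went into a well of its own (18 libraries, 17 of them in the table). The other group holds stem cells of the blood, called HSC here, each sorted into a well by the gate Lineage- Kit+ Sca1+ CD150+ CD48- (5 libraries, 4 of them in the table). The labels name no strain, age, allele or treatment for either group, and no animals. P-values therefore measure only the spread between these libraries, which may be technical, and sorted replicates 3, 4 and 5 share a stem in their titles and may be plates of 1 sort. The groups also differed in how cells were collected and possibly in the sequencer, and these cannot be told apart from the kind of cell.

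Resident macrophages of the marrow engulf the nuclei that red cell precursors expel, clear dying cells and return iron from haem to the blood. Complement C1q, the first component of the classical complement pathway, is built from chains encoded by C1qa, C1qb and C1qc and binds debris and dying cells. In marrow it is made mainly by macrophages, so its transcripts serve to find these cells among others.

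Cells with at least 1000 transcripts were kept, which left 707 dissected cells with a median of 2272 transcripts and 245 sorted cells with a median of 1926. A dissected library held 6 to 73 such cells and 9032 to 313488 transcripts in all. A sorted library held 2 to 91 cells and 3119 to 238770 transcripts, and sorted replicate 1 was the one with 2 cells. No column name was repeated and no pair of kept cells had identical values. A cluster of 20 cells came from dissected replicates 1, 3 and 5 alone. The 2 tests of summed libraries, the share of C1q cells and the shares of transcripts in them were therefore also computed over dissected replicates 6 to 17. A dissected cell was called a C1q cell when it held at least 5 transcripts of C1qa, C1qb and C1qc together, from at least 2 of these 3 genes.

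The promoters of 4 genes are shown because these genes, with C1qa, had the largest shares of their transcripts in C1q cells. The bases lie before the RefSeq start of each gene (GRCm38.p6) and outside the gene as GENCODE draws it. They run 5′ to 3′ on the gene's strand, and capitals mark GAGGAA, a core bound by PU.1 and its relatives, and TGCTGA, the core of MAF sites, on either strand. C1qb (chr4:136886201-136886450, minus strand), C1qc (chr4:136893066-136893164, minus strand), Cd5l (chr3:87357631-87357880, plus strand) and Fcna (chr2:25628031-25628224, minus strand) read:
C1qb: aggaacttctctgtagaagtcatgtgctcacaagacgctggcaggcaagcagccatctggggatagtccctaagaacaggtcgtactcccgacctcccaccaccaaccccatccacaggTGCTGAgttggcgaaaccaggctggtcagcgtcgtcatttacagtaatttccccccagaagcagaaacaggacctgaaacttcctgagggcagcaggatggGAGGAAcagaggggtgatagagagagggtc
C1qc: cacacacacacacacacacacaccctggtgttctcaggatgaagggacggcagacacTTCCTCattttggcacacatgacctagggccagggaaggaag
Cd5l: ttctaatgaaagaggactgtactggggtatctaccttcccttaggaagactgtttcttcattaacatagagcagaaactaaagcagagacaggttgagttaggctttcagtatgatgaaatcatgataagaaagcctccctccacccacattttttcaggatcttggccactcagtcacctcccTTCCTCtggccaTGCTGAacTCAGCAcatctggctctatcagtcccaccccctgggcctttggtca
Fcna: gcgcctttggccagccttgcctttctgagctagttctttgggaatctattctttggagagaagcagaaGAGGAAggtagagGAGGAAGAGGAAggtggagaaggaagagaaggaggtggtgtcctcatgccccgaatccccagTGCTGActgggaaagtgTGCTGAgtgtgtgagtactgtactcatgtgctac

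GAGGAA or its reverse TTCCTC was found in the 250 bases before the start of all 4 genes, once in C1qb, C1qc and Cd5l and 3 times in Fcna. Over all 32851 promoters of that length in the RefSeq table, 23.3% held it. TGCTGA or its reverse TCAGCA was found once in C1qb and 2 times each in Cd5l and Fcna, against 16.1% of all promoters with at least 1. In Cd5l, TGCTGA and TCAGCA stood 2 bases apart, 54 and 46 bases before the start. GAGGAA was also found in at least 1 of the promoters listed for Axl, Apoe and Sepp1, and TGCTGA in none of theirs. Apoe and Sepp1 have several listed starts, which gives more chances of a match. These motifs were picked for this description, the matches are letters in a window, and no binding was measured.

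C1q cells were rare, and nearly all of them held most of the 10 genes. They numbered 20 of 707 dissected cells, or 2.83% (exact 95% binomial interval 1.74% to 4.34%, counting error only), and lay in 11 of 17 libraries. Replicate 17 held 5 of them, replicates 12 and 16 held 3 each, replicate 11 held 2, and replicates 2, 4, 6, 7, 10, 14 and 15 held 1 each. No clump held more than 1, so that the 20 cells came from 20 clumps. All 10 genes were found in 14 of the 20 cells and at least 9 in 15. No sorted cell met the rule. Of the other dissected cells, 615 held no C1q transcript and 72 held some: 53 held 1 transcript, 12 held 2 and 6 held 3 or 4, while 1 had 5 or more from a single gene. Few cells thus lay near the limit of 5, where 3 C1q cells had 5 to 9 transcripts and 17 had over 10.

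**Figure D1:**
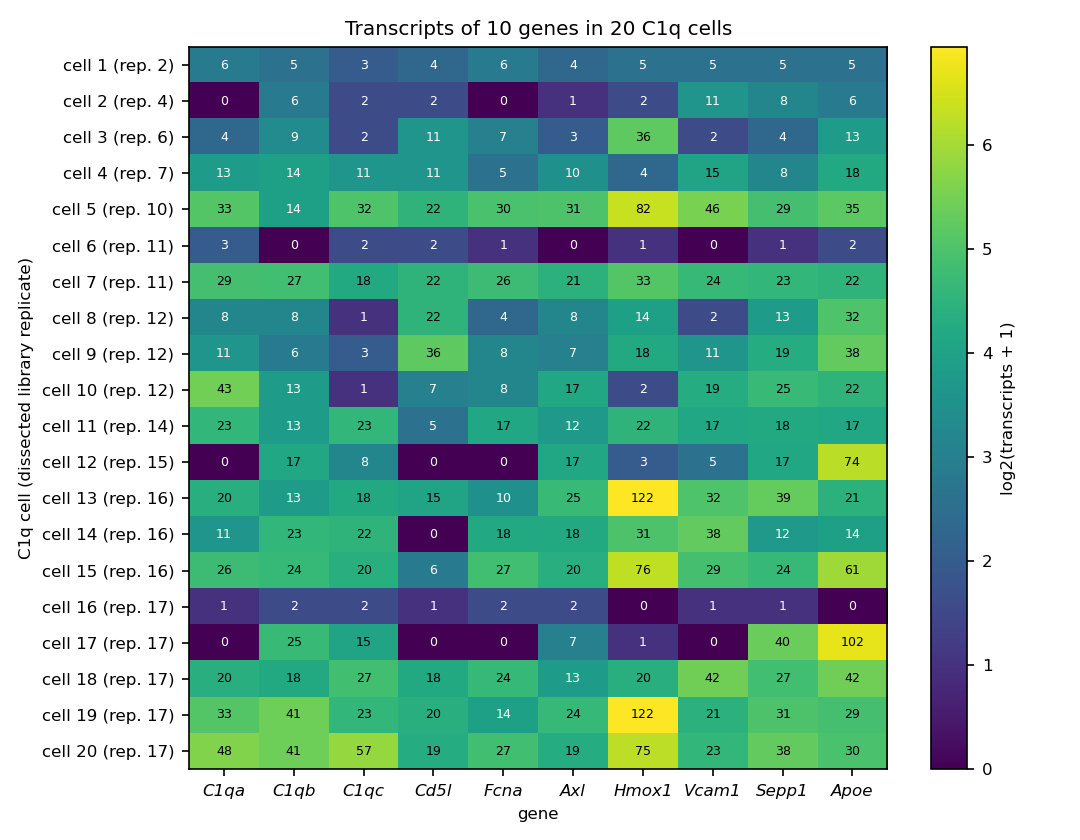
Estimated transcripts of each of the 10 genes (columns) in each of the 20 C1q cells (rows, with the dissected library they came from), written in the cells and coloured as log2(transcripts + 1). Most rows are filled throughout, and cells 6 and 16 are low in every column. Cells 12 and 17 have 0 for C1qa, Cd5l and Fcna beside the most Apoe transcripts, which are not scaled to the depth of the cell.

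The cells were clustered without reference to this rule, and the clusters were named from marker lists that hold these 10 genes, which is therefore no test. Of the 20 C1q cells, 18 lay in the cluster named macrophage-like, whose only other member was a replicate 9 cell with 4.02 C1q transcripts of 1062 in all. That cell also held 12.3 transcripts of Hmox1 and 6.07 of Sepp1. A C1q cell from replicate 11 lay in an unnamed cluster and held 5.03 C1q transcripts among 11610. A C1q cell from replicate 17 lay with erythroblast-like cells and held 5.02 among 4003. Neither held more than 3.02 transcripts of any of the 10 genes. Whether these wells held RNA of more than 1 cell was not tested.

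The 3 chains of C1q lie within 18675 bases of chromosome 4, C1qb at chr4:136880129-136886187, C1qc at chr4:136889804-136893065 and C1qa at chr4:136895917-136898803, all on the minus strand (GENCODE vM21, GRCm38). They chose the C1q cells, so their levels there are a description. A C1q cell held 0 to 48.3 transcripts of C1qa (median 12.3), 0 to 41.1 of C1qb (median 13.9) and 1 to 56.9 of C1qc (median 13.4). C1qa was at 0 in 3 of the 20 cells and C1qb in 1, while C1qc was in all 20. Of all their transcripts in dissected cells, 90.2% of C1qa, 90.9% of C1qb and 88.9% of C1qc were in C1q cells. Outside them no cell held more than 5.05 transcripts of a chain.

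Cd5l and Fcna, both secreted by macrophages, had as much of their transcripts in C1q cells as the chains of C1q, though the rule did not use them. Cd5l (chr3:87357881-87371073) encodes a scavenger protein of the blood that binds lipids and microbes, and Fcna (chr2:25624666-25628030) encodes ficolin A, a lectin that starts the complement cascade. C1q cells held 92.1% of the 242 Cd5l transcripts and 90.4% of the 260 Fcna transcripts of dissected cells. Cd5l was found in 17 of 20 C1q cells, with a median of 9.17 transcripts and a highest value of 36.5. Fcna was also found in 17, with a median of 8.13 and a highest value of 29.7. Outside C1q cells, Cd5l was found in 16 cells of 687 and Fcna in 20, and all but 3 cells for each held 1 transcript.

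Axl (chr7:25757273-25788705), a receptor kinase through which macrophages take up dying cells, was close behind. It was found in 19 of 20 C1q cells, with a median of 12.8 transcripts, and 87.7% of its 294 transcripts in dissected cells were there. Of the 35 other dissected cells that held it, 34 held 1 transcript and 1 held 2.01.

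The other 4 genes were high in C1q cells but were also found in many other cells. Hmox1 (chr8:75093621-75100589) encodes haem oxygenase, which opens the haem ring and frees its iron. C1q cells held from 0 to 122 Hmox1 transcripts (median 18.7), and 80.1% of 835 were in C1q cells. Apoe (chr7:19696109-19699188) encodes a carrier of lipids out of macrophages. It ranged from 0 to 102 transcripts in C1q cells (median 21.9), and 80.3% of 724 were there. Sepp1 (annotated as Selenop, chr15:3268547-3280508) encodes a secreted protein that carries selenium. It was in all 20 C1q cells, with 1 to 40 transcripts (median 18.1), but only 68.6% of 556 were there. Vcam1 (chr3:116109949-116129688) encodes an adhesion molecule that binds integrins of blood cells, and with 50.6% of 677 transcripts in C1q cells it had the lowest share. Outside C1q cells, Vcam1 was found in 135 cells, Sepp1 in 125, Hmox1 in 110 and Apoe in 90. For the 7 genes outside the rule together, C1q cells held 75% of the transcripts.

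**Figure D2:**
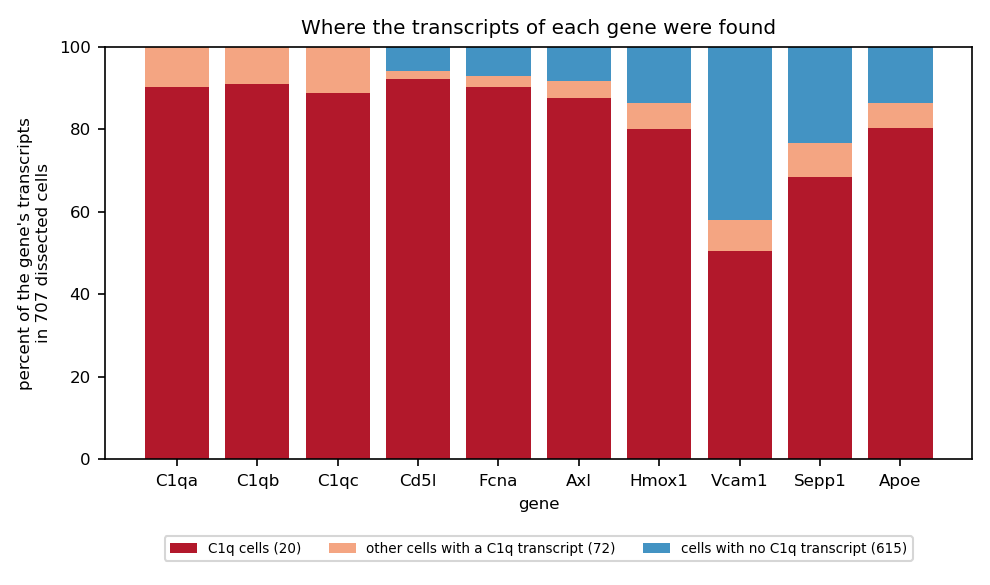
Share of each gene's transcripts in the 707 dissected cells (vertical axis, percent) that was found in the 20 C1q cells, in 72 other cells with a C1q transcript and in 615 cells with none. Cd5l, Fcna and Axl have 87.7% or more in C1q cells, like the C1q chains that chose them, and Vcam1 has 50.6%.

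The proportion of each gene to C1q transcripts also differed between the genes. In C1q cells there were 0.236 Cd5l, 0.249 Fcna and 0.273 Axl transcripts per transcript of C1q. In the other dissected cells the values were 0.183, 0.24 and 0.346. Hmox1 stood at 0.708 per C1q transcript in C1q cells and at 1.59 outside them, Apoe at 0.615 and 1.37, Sepp1 at 0.404 and 1.67, and Vcam1 at 0.362 and 3.2. In sorted HSC there were 46.9 Apoe and 17.9 Sepp1 transcripts for each of C1q, on only 6.01 C1q transcripts. Relative to C1q, the 4 widespread genes and, by a smaller factor, Axl were thus higher in the other dissected cells than in C1q cells. Cd5l was lower there, on 19.05 transcripts, and Fcna was nearly equal, on 25.08. The rule limits the C1q transcripts a cell outside can hold, and the part of free RNA in these values was not tested.

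Within the same library, Axl, Hmox1, Vcam1, Sepp1 and Apoe were at higher levels in C1q cells than in the other cells in all 11 libraries, and Cd5l and Fcna in most. Transcripts were summed over C1q cells and over other cells in each of the 11 libraries that had both, and are given as CPM, scaled to a common total. Of the 268 genes tested in this comparison, 37.7% were called in either direction. C1q cells were also deeper than the others, with a median of 4107 transcripts against 2265. Apoe was at 1452 to 15630 CPM (median 5854) in C1q cells and at 0 to 133 (median 54.7) in the others. Sepp1 was at 1452 to 9789 CPM (median 4048) against 0 to 108 (median 48). The sums of C1q cells and of other cells did not overlap for either gene. Of 13930 genes tested without a filter, 0.187% had their lowest C1q sum above the highest other sum. A gene at 0 in any C1q sum could not meet this, so the share says little about genes found in all 11 sums.

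The same was seen for Axl, with 734 to 5495 CPM (median 3396) in C1q cells against 0 to 34.9 (median 11.1). Hmox1 was at 282 to 24520 CPM (median 5839) against 0 to 147 (median 50.8). Vcam1 was at 470 to 8076 CPM (median 5322) against 0 to 242 (median 106). For these 3 genes, too, the lowest sum of C1q cells was above the highest sum of other cells. The gap rests on few transcripts at its lower end. Axl's 734 CPM was 1 transcript in the C1q cell of replicate 4, which held 1367 in all. Hmox1's 282 CPM was 3.02 transcripts in that of replicate 15. In a sum as small as that of replicate 4, any transcript lies above all the sums of other cells.

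Cd5l and Fcna had exceptions. Cd5l was at 0 to 11160 CPM (median 1652) in C1q cells against 0 to 52.3 (median 6.54), and Fcna at 0 to 5322 (median 3435) against 0 to 19.9 (median 7.75). Replicate 15 had neither gene in its C1q cell, and replicate 4 had no Fcna there. Cd5l was higher in C1q cells in 10 of 11 libraries and Fcna in 9.

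In edgeR's quasi-likelihood test with the library as a block, 268 genes passed the filter on low counts, and 14.6% of them were higher and 23.1% lower in C1q cells (Benjamini-Hochberg adjusted p under 0.05). Of the 10 genes, 6 passed that filter, of which C1qb and C1qc chose the cells. For Axl, Apoe, Sepp1 and Vcam1 no sum of other cells was above 242.3 CPM. Hmox1 missed the filter with its lowest C1q sum at 282 CPM. Axl, Apoe, Sepp1 and Vcam1 thus passed only through C1q cells. A call for them could only be higher, and the number that passed is no measure. The other 4 were called higher, Axl by 7.77 ± 0.40 (log2, approximate SE), Apoe by 6.91 ± 0.39, Sepp1 by 6.46 ± 0.37 and Vcam1 by 5.14 ± 0.36, with adjusted p of 5.15e-43 or lower. Over the 23 to 25 alternatives in which each was tested, their highest adjusted p was 3.77e-09, for Vcam1. It came from the fit with no filter and TMM factors, where the differences were smaller, at 6.01 for Axl, 5.0 for Apoe, 4.61 for Sepp1 and 3.20 for Vcam1. Vcam1 did not pass the filter without replicate 17, nor Axl, Vcam1 and Apoe with C1q cells of 3 transcripts or more. C1qa, Cd5l, Fcna and Hmox1 did not pass the filter. C1qa, Cd5l and Fcna were at 0 in the C1q sum of replicate 15, a single cell, where Hmox1 was lowest too. With no filter and library totals in place of TMM factors, a setting chosen after seeing the data, 13930 genes were tested, 9.28% were called and 5.38% were higher. Cd5l was then higher by 7.33 ± 0.45, Fcna by 7.78 ± 0.46 and Hmox1 by 6.29 ± 0.38 (edgeR, adjusted p of 5.59e-58 or lower). With no filter and TMM factors they were higher by 5.87, 6.38 and 4.70 (edgeR, adjusted p of 3.45e-14 or lower), where 25.9% of genes were called.

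An exact sign-flip permutation test of the CPM difference over the 11 libraries, also added later, gave two-sided p = 0.000977 for Axl, Hmox1, Vcam1, Sepp1 and Apoe. That is the smallest value which 2048 flips can give. It gave p = 0.00195 for Cd5l and p = 0.00391 for Fcna (exact, unadjusted, 7 genes tested). The count of genes called over the whole fit, 101, was 63 without replicate 17, which held 5 of the C1q cells, and 156 without replicate 6.

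**Figure D3:**
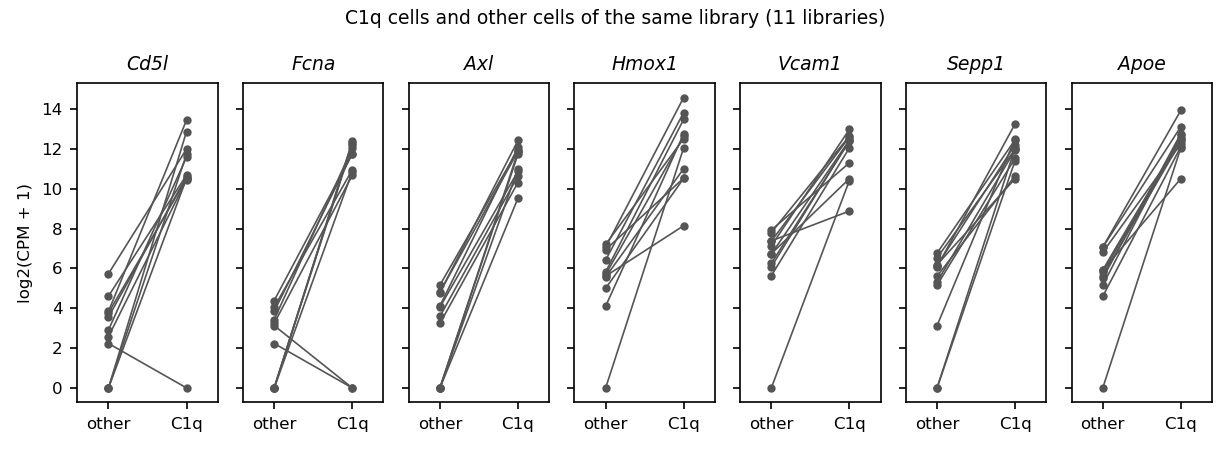
Level of the 7 genes outside the rule, as log2(CPM + 1), in the summed C1q cells and the summed other cells of each of 11 libraries, with a line joining the 2 values of a library. All lines rise except 1 for Cd5l and 2 for Fcna, which end at 0.

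Outside C1q cells, the 4 widespread genes were found in several classes of dissected cells, many of them shared by Sepp1, Apoe and Hmox1. The classes come from clusters of all genes, so the shares are a description, and they are shares of cells with at least 1 transcript. Vcam1 was found in 37 of 50 myeloblast and promyelocyte-like cells (74%, interval 59.7% to 85.4%) and 26 of 45 eosinophil-like cells (57.8%, 42.1% to 72.3%). It was found in 20 of 35 cells of an unnamed cluster, and in 14 of 225 erythroblast-like cells (6.22%) and 3 of 60 mature neutrophil-like cells (5%). The first of these classes was deep, with a median of 5436 transcripts against 2241, 1733 and 1363 in eosinophil-like, erythroblast-like and neutrophil-like cells. With each cell thinned to 1000 tags, Vcam1 was still found in 31.1% of myeloblast and promyelocyte-like and 31.9% of eosinophil-like cells, against 2.95% of erythroblast-like cells. It was in all 13 libraries that held eosinophil-like cells.

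Sepp1 was found in 32% of myeloblast and promyelocyte-like, 23.7% of monocyte and dendritic-like, 20% of mature neutrophil-like and 12% of erythroblast-like cells. After thinning, these shares were 7.55%, 10.8%, 12.7% and 6.21%, so the first was no longer the highest. Apoe was found in 23.7% of monocyte and dendritic-like, 18% of myeloblast and promyelocyte-like, 17.8% of eosinophil-like and 12.4% of erythroblast-like cells. After thinning, these shares of Apoe were 11.5%, 3.15%, 6.46% and 7.16%. Hmox1 was found in 20.3% of monocyte and dendritic-like, 20% of mature neutrophil-like, 17.3% of erythroblast-like and 6.67% of eosinophil-like cells. After thinning, these shares of Hmox1 were 6.82%, 13.6%, 9.5% and 1.43%. By contrast, C1qa, C1qb, C1qc, Cd5l, Fcna and Axl were each found in 8.48% or fewer of the cells of every named class of 20 cells or more. Some other groups had higher shares. In an unnamed cluster of 20 cells, C1qb was found in 3 (15%) and C1qc in 2 (10%). C1qa was found in 3 of 35 cells (8.57%) of another unnamed cluster. Of 8 megakaryocyte-like cells, 1 held C1qa and 1 held C1qc.

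**Figure D4:**
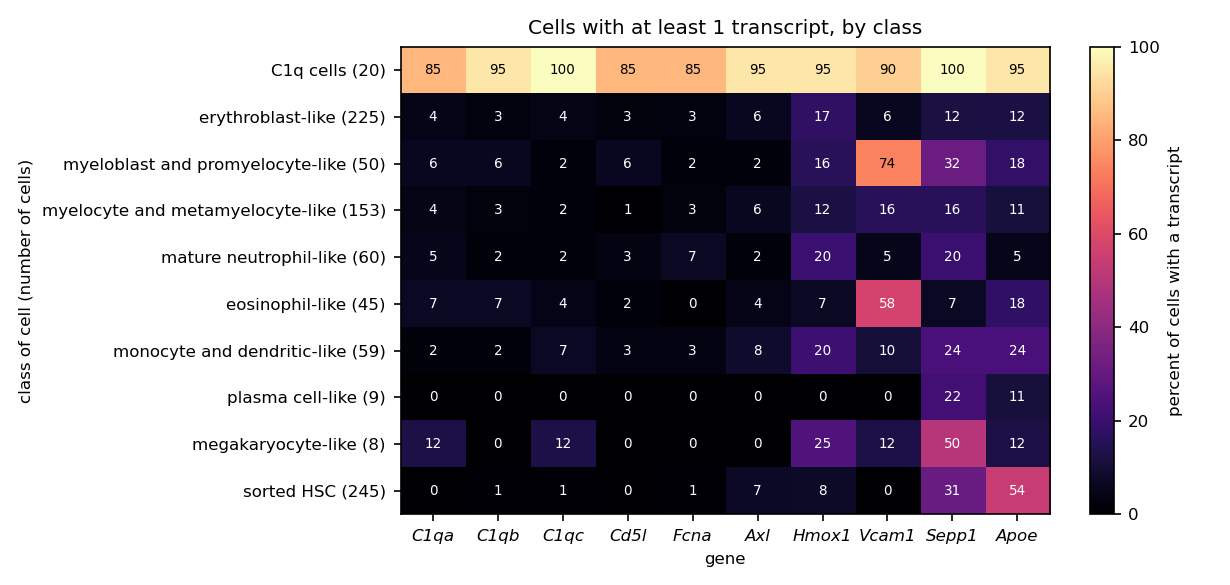
Percent of cells with at least 1 transcript of each gene (columns) in C1q cells, in each named class of other dissected cells and in sorted HSC (rows, with the number of cells), written in the boxes and shown by colour. Vcam1 stands out at 74% in myeloblast and promyelocyte-like and 58% in eosinophil-like cells, and Apoe at 54% in sorted HSC.

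Sorted HSC held Apoe and Sepp1 in many cells, Axl and Hmox1 in some, and the other 6 genes in few or none. Apoe was at 0, 527, 515 and 531 CPM in sorted replicates 1, 3, 4 and 5, and Sepp1 at 0, 202, 111 and 256.1. Replicate 1, with 2 cells, held none of the 10 genes, and a single transcript there is 321 CPM. The other 3 libraries were close together for Apoe, which was found in 50% to 61.5% of their cells and in 133 of 245 cells in all (54.3%, exact interval 47.8% to 60.6%). It was found in 13.1% of the 687 dissected cells that were not C1q cells (10.7% to 15.9%), whose median depth was 2265 transcripts against 1926. After thinning to 1000 tags the shares were 35.2% and 6.08%. An HSC held at most 8.13 Apoe transcripts, and 36 held 3 or more. Sepp1 was found in 76 HSC (31%, 25.3% to 37.2%) and in 18.2% of the same dissected cells, or in 17.8% and 7.55% after thinning. Of the 76 HSC, 45 also held Apoe. It was in 33.8% of HSC with Apoe and 27.7% of those without.

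Axl was found in 18 of the sorted cells (7.35%), at 0 to 59.9 CPM, and in 5.09% of the dissected cells that were not C1q cells, or 4.03% and 1.97% after thinning. Hmox1 was found in 19 sorted cells (7.76%), at 0 to 50.4 CPM, and in 16% of the same dissected cells, or 3.99% and 7.19% after thinning. C1qb, C1qc and Fcna were found in 3 sorted cells each and Cd5l in 1, always as 1 transcript. C1qa and Vcam1 were at 0 in all 245, which allows a share of up to 1.22% of cells with a transcript (3 counts).

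Dissected libraries varied more. Over the 17, Apoe ranged from 0 to 1588 CPM (median 136), Hmox1 from 31.9 to 4150 (median 164), Vcam1 from 9.52 to 606 (median 194) and Sepp1 from 0 to 768 (median 143). The highest Apoe and Hmox1 were both in replicate 6, where 1 of 6 kept cells was a C1q cell. Without C1q cells the ranges were 0 to 134 for Apoe, 0 to 170 for Hmox1, 0 to 240.5 for Vcam1 and 0 to 143 for Sepp1. Against that range for Apoe stood 527, 515 and 531 CPM in sorted replicates 3, 4 and 5, and 0 in sorted replicate 1. For how many of all genes sorted replicates 3, 4 and 5 lay above every dissected library was not counted.

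In the comparison of sorted with dissected libraries over 3639 genes, 30.4% were called, 11.2% higher and 19.2% lower in sorted HSC (edgeR, adjusted p under 0.05). All 10 genes passed the filter, and 6 were called lower. C1qa, Vcam1, C1qb, C1qc, Fcna and Cd5l, with 0 to 3 sorted transcripts each, passed only through the dissected group. So did Hmox1 and Axl, at no more than 50.4 and 59.9 CPM in any sorted library. For all of these genes a call could only be lower, and their number is not to be read against 19.2%. Vcam1 was at least 49-fold lower in sorted HSC and C1qa at least 26.8-fold lower, taking 3 transcripts over the group as the floor (edgeR, adjusted p = 4.96e-05 and 0.0328). C1qb was 25.6-fold higher in dissected cells (counting interval 8.71 to 125), C1qc 23.6-fold (8.01 to 115) and Fcna 18.8-fold (6.38 to 92), from 3 sorted transcripts each. Their adjusted p in edgeR were 0.0212, 0.0194 and 0.0479. Cd5l, with 1 sorted transcript, was 52.6-fold higher in dissected cells (9.36 to 2087), and its adjusted p was 0.0683 in edgeR. For Hmox1 the log2 difference was -3.24 ± 1.22, with an adjusted p of 0.049997 in edgeR. Axl (-1.70 ± 0.99, adjusted p = 0.207), Sepp1 (-0.43 ± 0.59, 0.625) and Apoe (0.52 ± 0.84, 0.686) did not pass.

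These calls rested on few libraries, while the differences kept their direction, the only one that a call for these genes could take. Vcam1 passed in all 15 alternatives. Without sorted replicate 3, 4 or 5, C1qa had log2 differences of -7.44, -7.49 and -7.46 (edgeR, adjusted p = 0.112, 0.0834 and 0.0977). For C1qc they were -4.75, -4.53 and -3.61 (edgeR, adjusted p = 0.0764, 0.0612 and 0.0947). C1qb lost its call without replicate 3 (-4.25, adjusted p = 0.104) or 5 (-3.89, 0.1). Without any 1 of the 4 sorted libraries, Fcna (-5.14 to -3.28, adjusted p of 0.0565 to 0.198) and Hmox1 (-3.39 to -3.10, 0.068 to 0.147) lost theirs.

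Leaving the C1q cells out of the dissected sums changed the comparison for Apoe and Sepp1. Of 3572 genes then tested, 31.6% were called, and 13.9% were higher and 17.7% lower in sorted HSC. Scaled to library totals alone, 750 were higher and 534 lower. Of the 10 genes, 4 passed the filter. Apoe was higher in sorted HSC by 2.99 ± 0.38 on the log2 scale and Sepp1 by 1.27 ± 0.41 (edgeR, adjusted p = 1.46e-07 and 0.0167). Vcam1 was lower by the same test (adjusted p = 1.79e-06), and Hmox1 had a value of -0.90 ± 0.54 (adjusted p = 0.211). Vcam1 and Hmox1 passed the filter only through dissected libraries, so a call for them could only be lower. Apoe was at 132.6, 112 and 133.6 CPM in dissected replicates 6, 10 and 12 and at 74.4 or less in the others. These were too few for the filter, so Apoe passed here only with the sorted libraries counted. A call for Apoe in this fit could hardly be lower. Without sorted replicate 1 the values were 3.06 for Apoe and 1.23 for Sepp1 (edgeR, adjusted p = 8.34e-08 and 0.0261). Over dissected replicates 6 to 17 alone they were 2.61 and 1.03 (adjusted p = 6.9e-08 and 0.0244, edgeR).

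Markers of other cells moved with this comparison. The summed level of 10 stem and multipotent progenitor markers was 2504 to 4060 CPM in sorted libraries and 40 to 646 CPM in the sums of other dissected cells of the 11 libraries, with none of them at 0 in sorted cells. The sum of 20 macrophage markers, which include the genes described here, was 0 to 881 CPM in sorted libraries, and 8 of the 20 were at 0. In C1q cells it was 15120 to 86530 CPM with none at 0. Of 12 stromal and bone markers, 8 were at 0 in C1q cells, and the sum of the 12, which include Lpl, was 369 to 3422 CPM there against 70.1 to 594 in the other cells. Myelocyte and metamyelocyte markers, 6 in all, summed to 11170 to 50480 CPM in the other dissected cells and to 0 to 16.8 in sorted libraries, where 3 of them were at 0. For 14 erythroblast markers the sums were 1912 to 22070 and 321 to 1380 CPM, with 6 at 0 in sorted cells. The part of these other cells in the differences of Apoe and Sepp1 was not tested.

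**Figure D5:**
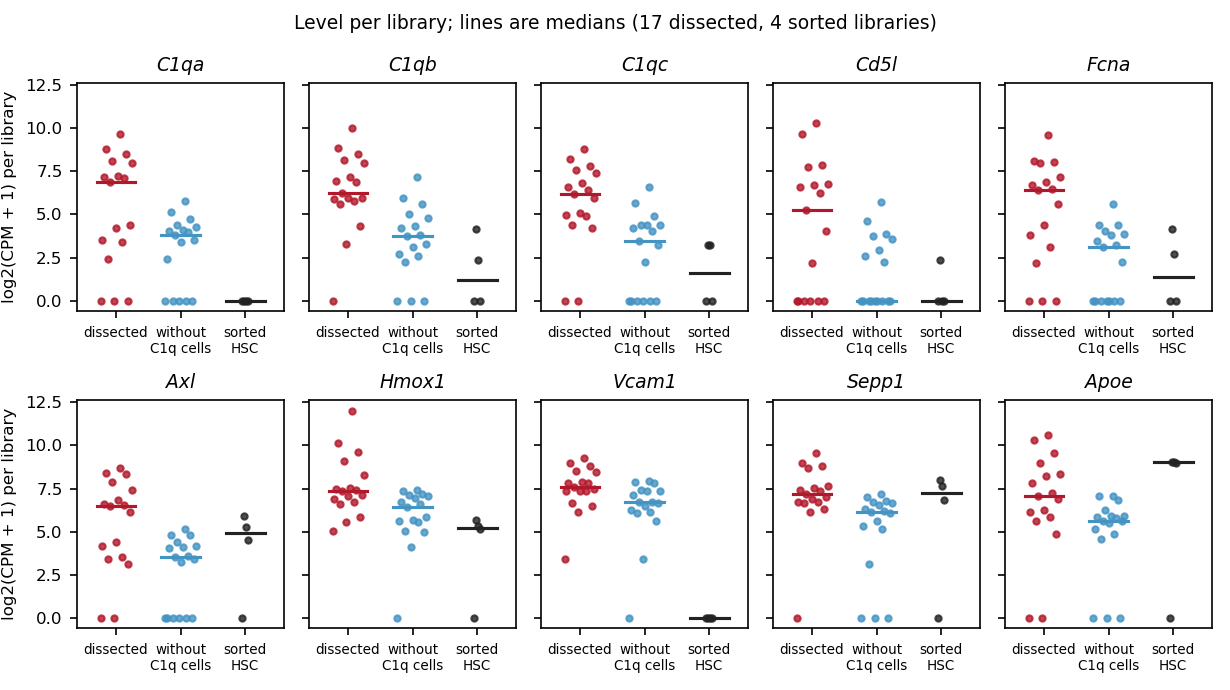
Level of each gene per library as log2(CPM + 1), in 17 dissected libraries, in the same libraries without their C1q cells, and in 4 sorted HSC libraries, with lines at the medians. Without C1q cells the first 6 genes fall to low levels, and Vcam1 stays high in dissected and at 0 in sorted libraries. Apoe is then highest in 3 of 4 sorted libraries and at 0 in sorted replicate 1.

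The 10 genes varied together over all dissected cells and little outside the C1q cells. Over 707 dissected cells, Pearson's r of log2(scaled value + 1) was 0.58 to 0.84 for the 45 pairs of genes (median 0.72). Over the 687 cells that were not C1q cells it was -0.05 to 0.30 (median 0.10). Within the 20 C1q cells it was 0.16 to 0.90 (median 0.64), highest for C1qa with Fcna (0.90) and lowest for C1qc with Cd5l (0.16). Cells share libraries and differ in depth, so these values are descriptions.

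A pair of C1q cells stood apart from the others. A cell from replicate 15 and a cell from replicate 17, with 10690 and 12673 transcripts, held no C1qa, Cd5l or Fcna but 16.5 and 25.2 transcripts of C1qb. They held the most Apoe transcripts, 73.7 and 102, but were also among the deepest C1q cells. Scaled to each cell's total, the highest Apoe was 25700 CPM, in a replicate 12 cell with 31.9 of 1242 transcripts. The replicate 15 cell was at 6953 CPM, and the median of the 20 cells was 5815. They also held 154.5 and 98.9 transcripts of Gpnmb, a membrane protein of lipid-laden macrophages and osteoclasts, while no other C1q cell held more than 6.07. Trem2, a lipid receptor, was at 14.4 transcripts in both and at 1 or 0 in the rest. These genes were picked after the values were seen.

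Each C1q cell had been pulled from a clump, read from the well's name in the table, and 13 of the 20 clumps gave another kept cell, 21 cells in all. Of these neighbours, 5 (23.8%, interval 8.22% to 47.2%) held a C1q transcript, against 67 of 666 other cells (10.1%, 7.88% to 12.6%). Axl was found in 5 of 21 (23.8%, 8.22% to 47.2%) against 4.5% (3.06% to 6.37%), and C1qc in 4 (19%, 5.45% to 41.9%) against 3.45% (2.2% to 5.14%). C1qa and C1qb were each found in 1 neighbour, Cd5l in none, and Vcam1 in 2 of 21 against 20% of others. Median depth was 1981 transcripts in neighbours and 2265 in the others, and transfer of RNA within clumps was not tested.

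Over the 8887 genes found in at least 15 dissected cells, the 3 most like the summed C1q level were the chains that make it up. The next 15 ranks held the other 7 genes described here and 8 genes outside the list, with Vcam1 last. Pearson's r with that sum was 0.84 for Axl, 0.79 for Fcna, 0.78 for Apoe, 0.77 for Cd5l, 0.73 for Sepp1, 0.72 for Hmox1 and 0.67 for Vcam1, over 707 cells. The first genes outside the list were Mrc1 (0.78), the mannose receptor, Fcgrt (0.78), an antibody receptor, and Sdc3 (0.74), a syndecan. Slco2b1 (0.71), Trf (0.71), the iron carrier transferrin, and Lgmn (0.70), a lysosomal protease, followed. Slc40a1 (0.68), the iron exporter ferroportin, Spic (0.67), a transcription factor of iron-recycling macrophages, Ms4a7 (0.66), Abca1 (0.65), a cholesterol exporter, Fcgr1 (0.65) and Pld3 (0.64) closed the 12.

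In C1q cells, many genes of the lysosome, of haem and iron, of lipid handling and of clearance were higher. Of complement 3 of 22 were higher and of selenium use 1 of 11, smaller parts of their lists but not below the share over all genes. Because most of these genes missed the filter on low counts, counts are given for the test without it (edgeR, library totals), where 5.38% of genes were higher, 3.91% were lower and the median log2 difference was -0.37. The scaling bears on them: with TMM factors 2.79% of genes were higher, 23.1% were lower and the median was -1.08, and each list's values under TMM are given second. Of 13 genes of the lysosome, to which none of the 10 belongs, 12 were higher and none lower (median 2.96), or 8 and none (median 1.43). Ctsb, a protease, was at 11380 ± 3719 CPM in C1q cells (SD, n = 11 libraries) against 468 ± 209 in other cells. Psap was at 7731 ± 4663 against 336 ± 189 and Ctsd at 4990 ± 3425 against 191 ± 130. In the filtered fit these genes were higher by 4.86 ± 0.39, 4.66 ± 0.35 and 4.87 ± 0.37 on the log2 scale (edgeR, adjusted p of 1.24e-33 or lower).

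For haem and iron recycling, 10 of 18 tested genes were higher and 1 was lower (median 2.23), or 8 and 2 (median 0.62). Ftl1 and Fth1, the chains of the iron store ferritin, were at 20210 ± 10970 and 9455 ± 6328 CPM in C1q cells against 2224 ± 715 and 1799 ± 826, and Fth1 was not called under TMM (0.52, edgeR, adjusted p = 0.519). Slc40a1 was at 2586 ± 1902 CPM against 67.1 ± 30.1. Cd163, a receptor for haemoglobin, was also higher (5.54 ± 0.44), and Hp, which binds free haemoglobin, was lower (-4.60 ± 0.68, edgeR).

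Lipid handling had 9 of 18 higher and none lower under both scalings (medians 2.82 and 1.51), among them Npc2 (1758 ± 1307 CPM against 245 ± 96.8), Lpl (1426 ± 1023 against 43.1 ± 29.8) and Lipa (1162 ± 802 against 36.6 ± 34.6). Apoc1, Apoc2 and Apoc4, neighbours of Apoe on its chromosome, were not called, with at most 1 library of C1q cells holding each. Of the genes that clear dying cells, 11 of 19 were higher and 1 lower (median 3.22), or 11 and 2 (median 1.86). Mrc1 was at 1340 ± 896 CPM against 9.13 ± 15.1 and in all 11 libraries. Mfge8, a bridge to dying cells, was at 635 ± 1580 against 6.16 ± 7.62, but was found in C1q cells of 2 libraries only. It came from the replicate 15 and 17 cells with the most Gpnmb, at 54.4 and 65.8 transcripts of Mfge8, and was at 0 in every other C1q cell. Rac1 was at 590 ± 312 against 487 ± 185 and was not called, while under TMM it was lower (-1.33, edgeR, adjusted p = 0.0193). Mertk, a relative of Axl, was higher (5.58 ± 0.85), as was Gas6, the ligand of both (4.07 ± 0.49, edgeR).

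The complement system beyond C1q was mixed, with 3 of 22 higher and 3 lower (median 0.24), or 2 and 5 (median -0.94). Higher were Cfp, the alternative pathway's properdin (979 ± 751 CPM against 39.7 ± 27.8), the receptor gene C3ar1 (5.40 ± 0.86) and the integrin gene Itgax (2.76 ± 0.92, edgeR), the last not under TMM (1.86, adjusted p = 0.144). Calr (651 ± 435 against 733 ± 298) and Cd59a (160 ± 510 against 35 ± 32.5) were not called, though Calr was lower under TMM (-1.64, edgeR, adjusted p = 0.00377). Fcnb, the neutrophil counterpart of Fcna, was lower (-4.16 ± 0.75, edgeR), as were C3 (-3.37 ± 0.68) and the integrin gene Itgam (-2.35 ± 0.61). C1ra, which encodes a protease of the C1 complex, was at 11.3 ± 25.1 CPM in C1q cells, and C1s, the other, was at 0 in all 11 of their sums. Of genes for selenium use, 1 of 11 was higher, Sepw1 (2.28 ± 0.46, edgeR), and the median was 0.06, while under TMM none was higher and 4 were lower (median -1.16). Gpx1 was at 3692 ± 2375 CPM against 4904 ± 1383, Gpx4 at 560 ± 545 against 682 ± 454 and Sep15 at 255 ± 242 against 205 ± 98.9, and none of these was called. Under TMM, Gpx1 (-2.18, adjusted p = 0.000208) and Gpx4 (-1.53, adjusted p = 0.0125, edgeR) were lower.

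All 19 further genes of macrophage identity in the table were higher (median 4.82), or 15 of them (median 3.43), including Tyrobp (3321 ± 1085 CPM against 934 ± 358), Ctss (2517 ± 3297 against 44.5 ± 46.2) and Fcer1g (2492 ± 1243 against 420 ± 196). Tyrobp (0.15, adjusted p = 0.832) and Fcer1g (0.77, adjusted p = 0.217, edgeR) were among the 4 not called under TMM. In the filtered fit the largest log2 rises outside the 10 genes were those of Marcks (4.98 ± 0.35), Ctsd, Ctsb, Psap, Sat1 (3.57 ± 0.31), Ftl1 (3.27 ± 0.46), Prdx1 (3.23 ± 0.31), Npc2 (3.13 ± 0.33), Lamp1 (2.98 ± 0.32) and Fcer1g (2.72 ± 0.30). The largest falls were those of granulocyte genes, Serpinb1a (-6.20 ± 0.73), Ear1 (-6.12 ± 0.62), Prg2 (-5.19 ± 0.47), Camp (-4.59 ± 0.44) and Ear6 (-4.59 ± 0.56), each with an adjusted p of 1.26e-11 or lower in edgeR. Granulocyte markers moved with these falls: 6 eosinophil markers summed to 0 to 48710 CPM in other cells against 0 to 2545 in C1q cells, and their part was not tested.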

How the data were processed

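CEL-seq of single mouse bone marrow cells was analysed in 17 dissected and 4 sorted libraries. The submitters' processing notes name mm10 and BWA 0.6.2-r126. Which annotation and filters were used is not given in the sources used here. Estimated transcripts are the unit: the deposited table holds the authors' estimated transcript counts (expected counts) of 23536 gene rows in 1915 wells. Judged from the steps between values, they are corrected for tags drawn more than once from 256. The authors' deposited files per library hold estimated counts of the same kind and served as an alternative. Replicate 18 of the dissected cells was used only through its own file, and replicate 2 of the sorted HSC was not used here. Each column was taken as a cell. Numbers given to replicates follow accession order and pair nothing across groups.

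Wells with at least 1000 transcripts were kept (707 of 1546 dissected, 245 of 369 sorted), and no doublet caller was run. C1q cells held at least 5 transcripts from at least 2 of C1qa, C1qb and C1qc. The genes, lists and tests were chosen with earlier results of these data known. Transcripts were summed per library, and for C1q cells and other cells within each library, rounded to whole numbers, and tested in edgeR 4.0.16 (R 4.3.3; filterByExpr, TMM factors, robust quasi-likelihood fit, Benjamini-Hochberg adjustment, 0.05), with DESeq2 1.42.0 (size factors from positive counts) as an alternative. The sorted comparison had no covariates, and C1q cells were compared with the library as a block. The SE is approximate, the log2 difference over the square root of F. The SD of a level is over libraries. Both fits were tested on simulated counts. In scanpy 1.11.5, 2000 variable genes, 30 components, 15 neighbours and Leiden resolution 1 gave the classes, named from marker lists. Shares were also computed for cells thinned to 1000 tags, leaving out 26 dissected and 0 sorted cells. Intervals are exact at 95% and, like the floor of 3 counts, cover counting error only.

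Named genes are the 10 described, the 12 most like summed C1q over genes in at least 15 cells, the 10 highest and 5 lowest called in the fit of C1q cells without predicted genes, and the 3 with the highest CPM of each list; others named were chosen after their values were seen. Sequences and starts are RefSeq's (GRCm38.p6), where 7 of 10 genes had an entry, and positions GENCODE vM21's, where all 10 matched. The alternatives tried were scaling, filter, tool, cell minimum, C1q rule, block and libraries left out.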

Additional observations from a re-analysis of the deposited data

Results flagged for a closer look

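In sorted HSC, 16 sets of 4 library values were checked for a value far from the others, and 3 stood apart. Chance picks about 1 in 20 such sets, but a gene found in a single library stands apart by construction, and Cd5l counts here as CPM and as percent of cells for the same transcript. Apoe was at 0 CPM in replicate 1, which held 2 cells, and at 515 to 531 CPM in the other 3. Cd5l was at 4.2 CPM and in 1.1% of cells in replicate 3 and at 0 in the rest, on 1 transcript.

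Dissected replicate 18, which is not in the table, had 2 C1q cells among 83 kept cells in its own file, and each held all 10 genes. The first held 27.4 transcripts of Apoe, 24.1 of Hmox1 and 8.13 of Cd5l, and the second 53.2, 38.8 and 45.9. The file of replicate 9 held 1 C1q cell where the table had none among kept cells of that library. It had 196 transcripts of Sepp1, 73.7 of Apoe, 45.9 of C1qa and 0 of Cd5l. The file of replicate 3 also held 1 where the table had none, with 3.02 transcripts of C1qb and 2.01 of C1qc.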

How the results depend on the processing

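No paired analysis was possible because the replicate numbers of sorted and dissected libraries follow the order of the records. For C1q cells against other cells, with 101 genes called with the library as a block, the fit with no replicate block called 87. The count was 3611 with no filter (389 higher, 3222 lower), 1293 with no filter and library totals (749 and 544), 171 at a minimum of 2000 transcripts, 164 with only libraries of 2 C1q cells or more, and 63 to 156 with each library left out. For sorted HSC against dissected cells, 1106 genes were called, 2838 with no filter, 584 at a minimum of 2000 transcripts and 743 to 1454 with each sorted library left out. The calls of 408 higher and 698 lower became 754 and 558 with library totals. Sepp1 changed sign without C1q cells, at 1.27, and at 1.55 with library totals too, 1.23 without sorted replicate 1 too and 1.03 over dissected replicates 6 to 17, and Apoe passed in these 4 settings at 2.99, 3.27, 3.06 and 2.61 (edgeR). In the settings that gave 2.99 and 3.27, Apoe passed the filter only with the sorted libraries counted, so a lower call was hardly possible. At a minimum of 2000 transcripts, adjusted p was 0.0933 for C1qa, 0.104 for C1qb and 0.0823 for C1qc (edgeR). DESeq2 called Cd5l (adjusted p = 0.0124). The share of C1q cells ranged from 2.41% to 3.74% over 6 alternatives. The share of the 7 genes' transcripts in C1q cells was 73.1% at a minimum of 500 transcripts, 76.5% at 2000 and 76.4% over dissected replicates 6 to 17, against 75%. The cause was not tested for any of these. In the fit of C1q cells, Axl, Vcam1, Sepp1 and Apoe kept their direction and call wherever they were tested. In its main setting they passed the filter only through C1q cells, so a call there could only be higher. Settings over replicates 6 to 17, 2 choices at once, a full C1q set and the sign-flip test were chosen after seeing the data. A C1q sum from 1 cell limits which genes pass the filter, and 1 transcript in a sorted library is 4.19 to 321 CPM.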

Other observations

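The names of some dissected wells in the table hold the word "big", which the labels do not define. It stood in the names of 7 of 20 C1q cells (35%, exact interval 15.4% to 59.2%) and of 8 of 687 other dissected cells (1.16%, 0.504% to 2.28%).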
